A study of Mus musculus with 26 samples.

Results

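Mouse genes named Zfp followed by a number encode zinc finger proteins. Of 373 such symbols in the count tables, not counting Zfp36, a finger protein of another type that destabilises messenger RNA, 183 were selected on their measured level: a mean of at least 10 CPM in at least 1 arm of the study. The tables list 54146 genes in all. CPM is the count of a gene per 1000000 gene counts of its library, and the minimum was applied to it unscaled. Every level given below is on scaled CPM, for which the library size was first multiplied by its edgeR TMM factor. Since measured levels chose the genes, the levels and the numbers in each arm are a description.

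The study compared leukaemia cells that differed in the histone methyltransferase SETDB1. Lineage-negative mouse bone marrow cells had received retroviral MLL-AF9, the fusion oncogene of an aggressive acute myeloid leukaemia, together with a puromycin-resistance MSCV retrovirus that carried SETDB1 (MA9+SETDB1) or nothing further (MA9+EV, the empty vector). Both arms therefore carried MLL-AF9 and passed through puromycin selection of 3 to 6 weeks and culture of 8 to 12 weeks with IL-3 and SCF. RNA-seq gave 3 libraries per arm, labelled biological replicates. The labels do not say whether the replicates came from separate transductions, and a p-value here therefore reflects library-to-library spread, which may be technical. They give no strain or age of the marrow donors.

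Most Zfp genes encode proteins with arrays of C2H2 zinc fingers, each of which folds around a zinc ion and reads a few bases of DNA. Many also carry a KRAB domain, which recruits the scaffold KAP1 (gene Trim28). KAP1 brings in SETDB1, which methylates lysine 9 of histone H3, and the chromatin at the bound site, often a transposable element, is silenced. KRAB zinc finger genes lie in clusters that arose by gene duplication, and their own clusters are known to be covered by the same mark. Other Zfp genes work in RNA processing, on ribosomes, as ligases or in chromatin complexes, so the shared name covers proteins of unlike function.

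Libraries held 18070482 to 22561757 gene counts, so that 3 counts corresponded to 0.133 to 0.166 unscaled CPM. The gene Setdb1 itself, counted as a check of the labels, stood at 107 ± 2.29 scaled CPM with the empty vector and at 562 ± 75.8 with SETDB1 (mean ± SD, n = 3 in both). Reads from the vector and from the chromosomal gene cannot be told apart in these counts. Markers of blood lineages moved with the arms. The summed level of 7 neutrophil and primary granule genes was 13800 to 16400 scaled CPM in MA9+EV and 40.2 to 125 in MA9+SETDB1, while that of 8 mast cell and basophil genes was 162 to 202 and 10900 to 11400. All 7 of the former were called lower, and of the latter 7 were called higher and 1 lower. The 6 erythroid genes summed to 0.702 to 1.46 and 1090 to 1650 scaled CPM. The 6 monocyte and macrophage genes summed to 2350 to 3850 in MA9+EV and 648 to 1570 in MA9+SETDB1, with 4 called lower and 2, Adgre1 and Csf1r, called higher. The 4 megakaryocyte genes summed to 1.28 to 1.41 and 518 to 644. The 3 leukocyte genes Ptprc, Spi1 and Cd44 summed to 634 to 758 and 438 to 490, and of these only Ptprc was called lower, the other 2 not being called. B cell, T and NK cell and stromal lists reached at most 0.363 scaled CPM in any library, and Pax5, Ms4a1, Cd4, Cd3e and Ncr1 were at 0 in both arms. The part of these lineage differences in the Zfp values below was not tested. In bulk RNA, fewer cells of a type and less RNA per cell cannot be told apart.

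Of the 183 Zfp genes, 147 reached the minimum in both arms, 24 only in MA9+EV and 12 only in MA9+SETDB1. The 36 genes of 1 arm were 19.7% of the set, beside 17.8% of the 9566 tested genes that reached the same minimum in either arm. All 183 passed the filter on low counts and entered the fit. For the genes of 1 arm the difference between arms is partly built into the choice, so they are described without a test. The values next to the minimum were close together. Just inside it lay Zfp27, with an unscaled mean of 10.0 CPM in MA9+SETDB1, Zfp945, with 10.3 in MA9+EV, and Zfp40, with 10.4 in MA9+EV. Just outside it lay Zfp932 with 9.98, Zfp846 with 9.39 and Zfp429 with 9.35 unscaled CPM, all in MA9+EV.

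**Figure D1:**
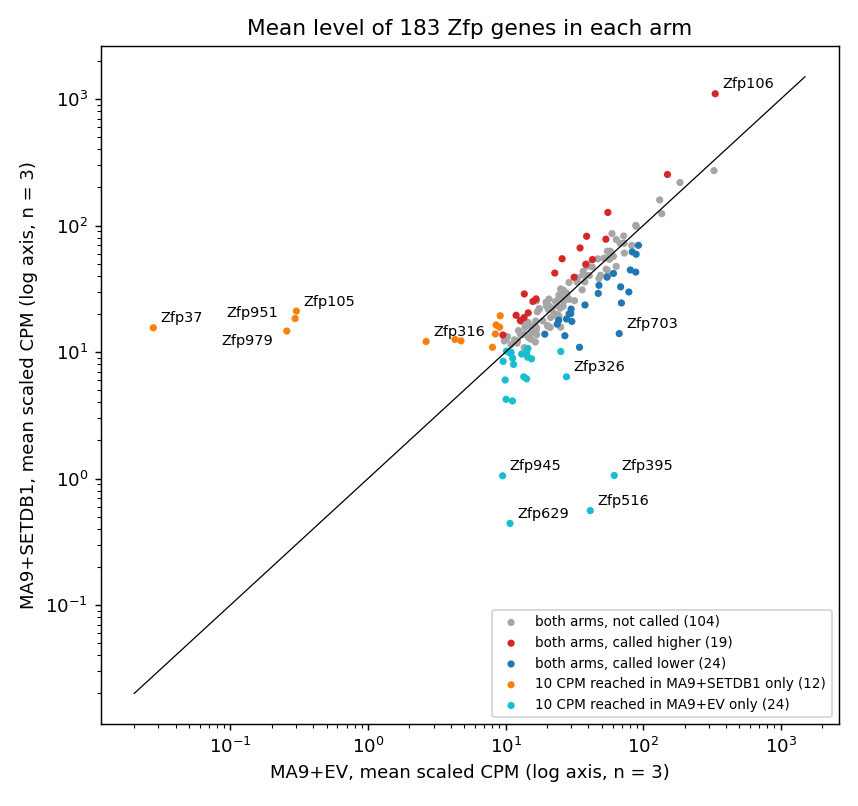
Mean scaled CPM of each of the 183 Zfp genes in MA9+EV (x axis, log scale) and MA9+SETDB1 (y axis, log scale), 3 libraries per arm, coloured by whether the minimum was reached in both arms or in 1 and by the call. Most points lie near the diagonal of equal level, and Zfp37, Zfp105, Zfp951, Zfp979, Zfp516, Zfp395 and Zfp629 lie far from it.

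The largest differences belonged to 8 genes that were low in 1 arm: Zfp37, Zfp105, Zfp951 and Zfp979 were counted almost only in MA9+SETDB1, and Zfp516, Zfp395, Zfp629 and Zfp945 mostly in MA9+EV. The promoters of 6 of them, all but Zfp516 and Zfp395, are shown so that their base composition can be compared. Each window runs from 250 bases before to 50 bases after the start in RefSeq's GRCm38.p6 annotation, which lay 0 to 583 bases from the outer end of the gene's span, and is written along the gene's own strand with CG dinucleotides in capitals. The positions are chr4:62208497-62208796, minus strand for Zfp37, chr9:122922828-122923127, plus strand for Zfp105, chr5:104860019-104860318, minus strand for Zfp951, chr4:147642459-147642758, minus strand for Zfp979, chr7:127615223-127615522, minus strand for Zfp629 and chr17:22867085-22867384, minus strand for Zfp945.
Zfp37: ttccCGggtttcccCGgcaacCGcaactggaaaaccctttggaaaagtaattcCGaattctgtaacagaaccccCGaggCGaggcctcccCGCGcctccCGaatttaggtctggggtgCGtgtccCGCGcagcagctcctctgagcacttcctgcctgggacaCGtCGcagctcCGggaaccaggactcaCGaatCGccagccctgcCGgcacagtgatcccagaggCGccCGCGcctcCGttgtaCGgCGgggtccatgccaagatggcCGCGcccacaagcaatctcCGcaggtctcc
Zfp105: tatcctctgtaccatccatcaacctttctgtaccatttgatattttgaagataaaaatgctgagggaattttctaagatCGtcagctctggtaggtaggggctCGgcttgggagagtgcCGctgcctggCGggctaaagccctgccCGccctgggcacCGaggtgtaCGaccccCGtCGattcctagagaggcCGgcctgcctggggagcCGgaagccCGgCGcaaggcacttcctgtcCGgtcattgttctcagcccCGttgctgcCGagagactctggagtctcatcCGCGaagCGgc
Zfp951: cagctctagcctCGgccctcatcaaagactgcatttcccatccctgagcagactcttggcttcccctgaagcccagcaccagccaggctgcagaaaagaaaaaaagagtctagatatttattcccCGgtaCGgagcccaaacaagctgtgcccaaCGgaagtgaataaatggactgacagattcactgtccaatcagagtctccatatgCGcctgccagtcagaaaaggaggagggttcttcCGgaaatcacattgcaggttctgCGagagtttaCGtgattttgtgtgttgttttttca
Zfp979: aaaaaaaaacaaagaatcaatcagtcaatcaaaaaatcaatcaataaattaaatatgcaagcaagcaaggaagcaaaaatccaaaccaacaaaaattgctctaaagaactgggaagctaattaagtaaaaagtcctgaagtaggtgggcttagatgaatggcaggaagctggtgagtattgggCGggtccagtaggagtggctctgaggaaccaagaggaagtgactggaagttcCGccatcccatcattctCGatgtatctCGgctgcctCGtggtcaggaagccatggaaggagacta
Zfp629: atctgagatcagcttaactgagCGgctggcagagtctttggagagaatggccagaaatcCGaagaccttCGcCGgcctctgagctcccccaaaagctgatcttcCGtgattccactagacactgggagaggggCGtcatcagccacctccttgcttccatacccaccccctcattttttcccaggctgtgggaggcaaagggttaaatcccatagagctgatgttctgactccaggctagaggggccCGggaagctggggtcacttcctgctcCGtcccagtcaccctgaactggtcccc
Zfp945: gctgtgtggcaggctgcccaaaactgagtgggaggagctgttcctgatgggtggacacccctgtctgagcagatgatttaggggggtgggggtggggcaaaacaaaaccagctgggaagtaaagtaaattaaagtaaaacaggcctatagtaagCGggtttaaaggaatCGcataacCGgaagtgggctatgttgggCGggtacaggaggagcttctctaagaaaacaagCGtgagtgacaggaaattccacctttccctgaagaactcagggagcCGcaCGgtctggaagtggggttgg
The windows of Zfp37 and Zfp105 hold 27 and 19 CG dinucleotides, and those of Zfp629, Zfp951, Zfp945 and Zfp979 hold 8, 8, 7 and 5. RefSeq gave a window for 148 of the 183 Zfp genes. Some of these windows started far from the outer end of the gene's span, such as 47285 bases for Zfp638 and 20845 for Zfp445. Over these 148 the median was 16 CG dinucleotides, beside 7 over all 27025 gene windows, and 66.9% had a ratio of observed to expected CG above 0.6, beside 36.5% of all windows. The 27025 windows were not limited to genes at the 10 CPM minimum by which the Zfp genes were chosen. Nothing is therefore read from these values about Zfp genes as a class. The promoters of Zfp genes that were called higher, called lower or not called in both arms had medians of 16, 16.5 and 16.5 CG.

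Letters of 3 motifs were searched on both strands. AGATAA, bound by GATA factors, was found in 8.78% of the Zfp windows and 11.4% of all windows. GAGGAAGT, a form bound by PU.1, was found in 4.05% and 3.25%, and the palindromic NRF1 motif of 10 bases in 4.05% and 0.981%. Here too, all windows include genes of any level, so these shares do not describe Zfp genes as a class. None of the motifs contains another. Among the printed windows, that of Zfp105 holds AGATAA, that of Zfp979 holds GAGGAAGT and none holds the NRF1 motif. A match is only a match of letters, and binding was not analysed here.

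Zfp37, a KRAB zinc finger gene known from the testis and brain (ENSMUSG00000028389.12, GRCm38 chromosome 4, 62189537 to 62209129), stood at 0.0825, 0 and 0 scaled CPM in MA9+EV replicates 1 to 3 and 4.30, 22.1 and 20.3 in MA9+SETDB1 replicates 1 to 3. It had 2 counts over the 3 MA9+EV libraries and 831 over the 3 MA9+SETDB1 libraries, a ratio of 529 per scaled library size with a 95% exact binomial interval of 146 to 4374 that covers counting error only. Both MA9+EV counts lay in replicate 1, so that without it MA9+EV had no count, and the fitted log2 difference, which then depends on the prior count of the fit, went from 8.78 to 11.2. Replicate 1 of MA9+SETDB1 was far below the other MA9+SETDB1 libraries, and yet lay above every MA9+EV library. The gene overlaps the RefSeq gene Gm30451.

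Zfp105 (ENSMUSG00000057895.11, chromosome 9, 122923039 to 122935260) stood at 0.206, 0.497 and 0.201 scaled CPM in MA9+EV replicates 1 to 3 and 11.8, 25.1 and 26.3 in MA9+SETDB1 replicates 1 to 3. Here too replicate 1 was the lowest MA9+SETDB1 library, and the arms did not overlap. The ratio of arm means was 69.8. Zfp951 (chromosome 5, 104802246 to 104860157) was at 0.578, 0.207 and 0.101 against 17.8, 16.5 and 20.9 scaled CPM and Zfp979 (chromosome 4, 147611936 to 147642508) at 0.454, 0.166 and 0.151 against 13.3, 15.1 and 15.5, MA9+EV first, with ratios of 62.4 and 57.0. For both of these genes replicate 1 was the highest MA9+EV library, and without it the fitted log2 difference went from 5.90 to 6.80 for Zfp951 and from 5.78 to 6.47 for Zfp979.

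The other 8 genes that reached the minimum only in MA9+SETDB1 were expressed in both arms. Zfp316 stood at 2.65 ± 0.839 and 12.1 ± 0.843 scaled CPM in MA9+EV and MA9+SETDB1 (mean ± SD, n = 3), Zfp667 at 4.29 ± 0.860 and 12.6 ± 0.0798, Zfp821 at 4.74 ± 0.532 and 12.2 ± 0.243, and Zfp949 at 9.14 ± 1.02 and 19.4 ± 0.636. Their ratios were 4.58, 2.93, 2.58 and 2.12. Zfp688, Zfp707, Zfp54 and Zfp27 had smaller ratios. All 12 had their 3 MA9+SETDB1 libraries above their 3 MA9+EV libraries, a direction that the choice of genes largely fixes. The same order was seen in 32.5% of the 9566 tested genes that reached the minimum in either arm.

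On the MA9+EV side, Zfp516, an activator of the brown fat programme (ENSMUSG00000058881.12, chromosome 18, 82909688 to 83005314), stood at 22.5, 52.1 and 49.2 scaled CPM in MA9+EV replicates 1 to 3 and 0.335, 0.973 and 0.363 in MA9+SETDB1 replicates 1 to 3. The arms were far apart, although replicate 1 of MA9+EV had less than the other MA9+EV libraries. The ratio of arm means was 74.1. Without replicate 2 of MA9+SETDB1, its highest library in that arm, the fitted log2 difference went from -6.22 to -6.85. Zfp395 (ENSMUSG00000034522.10, chromosome 14, 65358676 to 65398930) had the same order of libraries in MA9+EV, with 39.4, 75.3 and 70.2 scaled CPM against 0.335, 1.64 and 1.19 in MA9+SETDB1 and a ratio of 58.3.

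Zfp629 (chromosome 7, 127607028 to 127615785) stood at 6.97, 12.3 and 13.0 scaled CPM in MA9+EV replicates 1 to 3 and 1.12, 0 and 0.207 in MA9+SETDB1 replicates 1 to 3, so that 1 MA9+SETDB1 library had no count. The ratio of arm means was 24.4, and without replicate 1 of MA9+SETDB1 the fitted log2 difference went from -4.58 to -6.51. Zfp945 (chromosome 17, 22846697 to 22867309) stood at 6.19, 10.9 and 11.4 against 1.01, 0.851 and 1.30, a ratio of 9.05. In all 4 of these genes replicate 1 was the lowest MA9+EV library.

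Zfp326, whose protein belongs to a complex that couples transcription elongation to splicing (chromosome 5, 105876556 to 105915818), was at 32.7, 26.5 and 23.9 against 5.31, 7.05 and 6.74 scaled CPM, a ratio of 4.35. Zfp991 was at 11.2, 10.7 and 11.8 against 4.69, 4.20 and 3.42, Zfp111 at 28.7, 24.1 and 22.9 against 10.1, 10.4 and 9.80 and Zfp606 at 7.84, 11.3 and 11.2 against 5.03, 3.77 and 3.89. Ratios for these were 2.73, 2.50 and 2.39. Zfp991 overlaps its neighbour Zfp978 in RefSeq. Over all 24 genes of this side, 75% had their 3 MA9+EV libraries above their 3 MA9+SETDB1 libraries. The same order was seen in 34.4% of the 9566 tested genes that reached the minimum in either arm. For the 24 genes that separation is partly built into the choice, and its direction largely so. Of the remaining 16 genes of this side, 10 had arms that did not overlap and 6 had arms that did. Those 6 were Zfp943, Zfp213, Zfp61, Zfp605, Zfp839 and Zfp595, with arm means between 8.94 and 14.5 scaled CPM. The other 10, with smaller ratios than the 8 named, were Zfp992, Zfp799, Zfp810, Zfp39, Zfp768, Zfp157, Zfp74, Zfp182, Zfp788 and Zfp40.

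**Figure D2:**
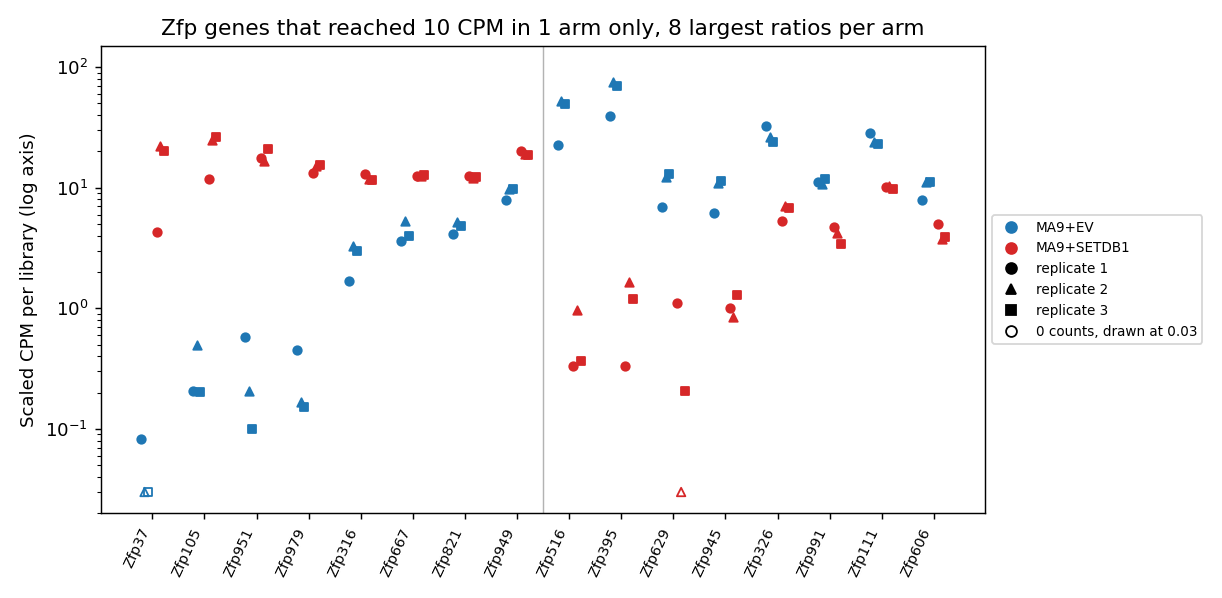
Scaled CPM of each library (log axis) for the Zfp genes that reached the minimum in 1 arm only, the 8 with the largest ratio per arm, with the arm in colour, the replicate by marker and libraries without a count as open markers. The MA9+EV replicate 1 circle lies under the other MA9+EV markers for Zfp516, Zfp395, Zfp629 and Zfp945, and the MA9+SETDB1 replicate 1 circle lies under the others for Zfp37 and Zfp105.

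For the 147 genes that reached the minimum in both arms, the arms were compared with edgeR's quasi-likelihood test, adjusted by Benjamini-Hochberg over all 12986 tested genes at a threshold of 0.05. In MA9+SETDB1 19 Zfp genes rose, 24 fell and 104 were not called. The called share was 29.3%, beside 48.7% of all 7860 tested genes that reached the same minimum in both arms. Higher calls made up 12.9% of the Zfp genes and 25.0% of the 7860, lower calls 16.3% and 23.7%. A test of these shares against each other was not made, and nothing is read from them about Zfp genes as a class.

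The size of the differences was moderate. The median fitted log2 difference, MA9+SETDB1 minus MA9+EV, was 0.01 with quartiles of -0.31 and 0.25, beside -0.01 with quartiles of -0.40 and 0.45 over the 7860 genes. Single Zfp genes ranged from -2.26 to 1.72. Of 147 genes 12, 5 higher and 7 lower, were called and differed more than 2-fold, which is 8.16% beside 17.3% of the 7860. The libraries of the arms did not overlap for 65 genes, or 44.2% beside 61.5% of the 7860. MA9+SETDB1 lay above in 34 of the 147, or 23.1% beside 30.3% of the 7860, and MA9+EV lay above in 31, or 21.1% beside 31.3%. Scaling moved the balance of the calls: with library totals alone, which shifts the median of all genes by -0.23, 9 Zfp genes were higher and 38 lower, and with upper-quartile factors 14 and 28.

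**Figure D3:**
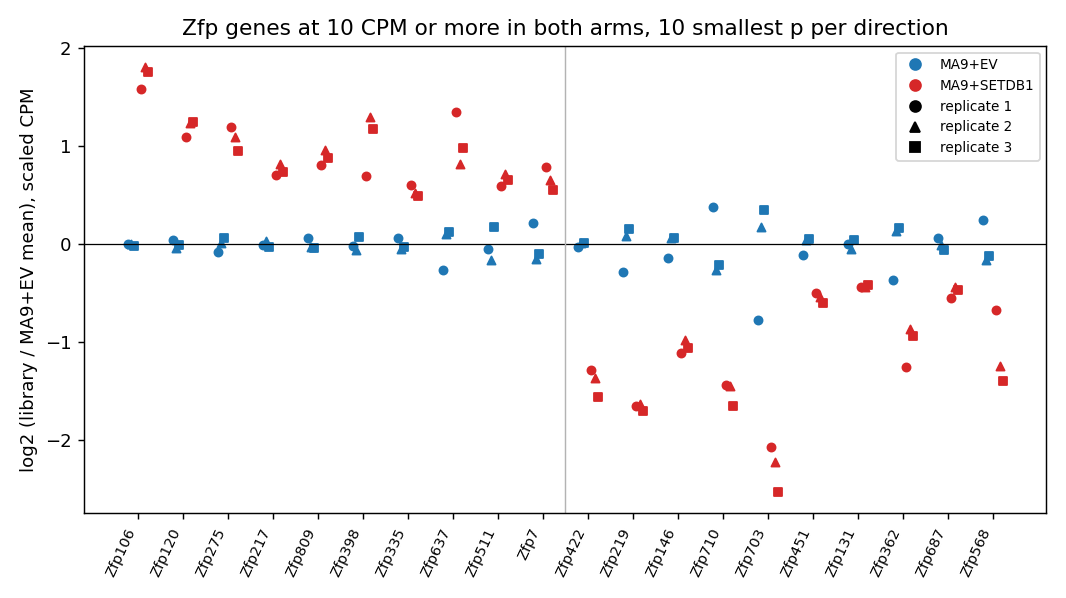
Log2 ratio of each library's scaled CPM to the MA9+EV mean of the gene, for the 10 higher and the 10 lower calls with the smallest p, with the arm in colour and the replicate by marker. In all 20 genes the MA9+SETDB1 markers lie on 1 side of the MA9+EV markers, farthest above for Zfp106 and farthest below for Zfp703.

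Among genes with roles on RNA and ribosomes, Zfp106, an RNA-binding protein needed to maintain motor neurons and muscle (ENSMUSG00000027288.16, chromosome 2, 120506820 to 120563864), rose most. It stood at 336, 334 and 331 scaled CPM in MA9+EV replicates 1 to 3 and 1004, 1170 and 1131 in MA9+SETDB1 replicates 1 to 3. The MA9+EV libraries were close to each other, all MA9+SETDB1 libraries were far above them, and the ratio of arm means was 3.30. The fitted log2 difference was 1.72 (SE 0.12, edgeR adjusted p = 5.38e-05). Zfp622, which helps release a factor from the new large ribosomal subunit, rose by a small step, with 34.3, 38.2 and 42.3 against 45.1, 52.2 and 50.9 scaled CPM and a log2 difference of 0.37 (SE 0.12, edgeR adjusted p = 0.0403). This call was lost in 9 alternative settings, among them leaving out any single library except replicate 1 of MA9+SETDB1, with adjusted p from 0.0522 to 0.376.

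The 6 further genes of this group were not called. Zfp598, the ligase that marks collided ribosomes, was at 84.0, 67.0 and 67.1 against 76.8, 67.0 and 73.3 scaled CPM, and Zfp638, which takes part in silencing unintegrated retroviral DNA, at 106, 76.5 and 83.9 against 116, 88.7 and 90.7. Zfp207, a kinetochore and spindle protein, was at 396, 295 and 290 against 340, 232 and 243. Replicate 1 was the highest library of both arms for Zfp207. Its difference of -0.27 passed the threshold with the replicate number as a block (edgeR adjusted p = 0.0443). Its value without replicate 1 of both arms was not examined. Zfp593, a factor of ribosomal subunit export, was at 24.0, 30.6 and 32.1 against 24.4, 36.6 and 45.5; without replicate 1 of MA9+SETDB1 its difference of 0.52 passed the threshold (adjusted p = 0.0354). Zfp346, which binds double-stranded RNA, and Zfp830 had overlapping arms and differences of 0.07 and -0.15. Of 9 genes listed for these roles, 2 of the 8 that reached the minimum in both arms rose, beside 48.7% of the 7860 called in either direction, and Zfp326 is described above. The median log2 difference with Zfp326 included was 0.07.

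Among the 6 expressed genes of chromatin complexes, of 9 listed, 2 rose and 2 fell, or 66.7% beside the 48.7% of the 7860, with a median log2 difference of 0.25 beside -0.01. Zfp217, a partner of the CtBP and CoREST corepressors and an oncogene in breast cancer, stood at 149, 154 and 148 scaled CPM in MA9+EV replicates 1 to 3 and 245, 265 and 250 in MA9+SETDB1 replicates 1 to 3. All MA9+SETDB1 libraries were well above all MA9+EV libraries, with a log2 difference of 0.75 (SE 0.09, edgeR adjusted p = 0.000574). Zfp335, needed for neural progenitors and for maturing T cells, was at 56.2, 51.8 and 52.8 against 81.6, 76.9 and 75.4, a difference of 0.54 (SE 0.09, edgeR adjusted p = 0.00257).

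Zfp644, which guides the G9a and GLP methyltransferases to chromatin, fell, with 50.5, 45.4 and 47.2 against 39.0, 29.5 and 32.5 scaled CPM, a difference of -0.50 (SE 0.13, edgeR adjusted p = 0.0176). Its call was lost without replicate 3 of MA9+EV, replicate 2 of MA9+SETDB1 or replicate 3 of MA9+SETDB1 (adjusted p = 0.053, 0.0708 and 0.0668). Zfp687 fell, with 57.1, 54.5 and 52.4 against 37.3, 40.4 and 39.5, a difference of -0.48 (SE 0.10, edgeR adjusted p = 0.00537). Its relative Zfp592, a member of the same chromatin complex with ZMYND8, had overlapping arms at 74.9, 56.4 and 60.1 against 98.9, 69.9 and 63.7 and was not called. Zfp277, a repressor at the Ink4a locus, had arms that did not overlap and a difference of 0.22 (SE 0.12, edgeR adjusted p = 0.167).

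Of the 3 ligase genes, with a median of -0.01, Zfp451 fell, or 33.3% beside 48.7%. This SUMO ligase stood at 56.5, 62.7 and 63.4 against 43.2, 42.1 and 40.2 scaled CPM, MA9+EV first, without overlap of the arms, and its log2 difference was -0.54 (SE 0.10, edgeR adjusted p = 0.00365). Zfp91, a ubiquitin ligase of the noncanonical NF-kB pathway, was at 187, 181 and 187 against 236, 220 and 201. The lowest MA9+SETDB1 library lay above the highest MA9+EV library, but the difference of 0.24 (SE 0.10, edgeR adjusted p = 0.0804) did not pass the threshold. With DESeq2's Wald test it did (adjusted p = 0.0345).

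Of 8 listed KRAB genes of known target 4 reached the minimum, and 1 rose and 1 fell, or 50% beside 48.7%, with a median of -0.01. Zfp809, which is known for silencing murine leukaemia viruses through the primer binding site and recruits KAP1 (chromosome 9, 22225667 to 22254117), stood at 23.9, 22.3 and 22.1 scaled CPM in MA9+EV replicates 1 to 3 and 39.9, 44.3 and 42.0 in MA9+SETDB1 replicates 1 to 3. The arms were apart by more than the spread within them, with a log2 difference of 0.89 (SE 0.11, edgeR adjusted p = 0.000626). Its annotated span overlaps Zfp599. The counting set aside 1.14% to 1.20% of entries as ambiguous between genes. Reads of the overlap may therefore be missing from the count of Zfp809 where strand was not used. Zfp568, which represses a placental promoter of Igf2 and is needed in early embryos, stood at 81.3, 61.5 and 63.0 scaled CPM in MA9+EV replicates 1 to 3 and 43.1, 29.1 and 26.0 in MA9+SETDB1 replicates 1 to 3. Replicate 1 was the highest library in each arm, the arms did not overlap, and the difference was -1.07 (SE 0.22, edgeR adjusted p = 0.00591).

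Zfp445, a regulator of imprinted loci, was at 134, 130 and 145 against 129, 123 and 120 scaled CPM. Its arms did not overlap, and its difference of -0.14 (SE 0.09, edgeR adjusted p = 0.243) did not pass the threshold, except with library totals as the scaling (-0.37, adjusted p = 0.0276). Zfp746, a repressor of mitochondrial biogenesis genes in neurons, was at 36.1, 39.8 and 37.2 against 43.6, 39.2 and 39.3, with overlapping arms.

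Of 6 expressed genes on a list for blood and immune regulation, of 8 listed, none rose and 2 fell, or 33.3% beside 48.7%, with a median of -0.20 beside -0.01. The roles given below for Zfp703, Zfp609 and Zfp281 lie outside blood and immune cells. Zfp703, a corepressor of the NET family whose human counterpart is amplified in luminal breast cancer (ENSMUSG00000085795.8, chromosome 8, 26977336 to 26981462), had the lowest difference of all 147 genes. It stood at 39.3, 76.0 and 85.7 scaled CPM in MA9+EV replicates 1 to 3 and 15.9, 14.4 and 11.6 in MA9+SETDB1 replicates 1 to 3. Replicate 1 of MA9+EV was far below the other MA9+EV libraries and still lay above every MA9+SETDB1 library. The log2 difference was -2.26 (SE 0.31, edgeR adjusted p = 0.00101).

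Zfp148, a GC-box binding factor with a part in haematopoiesis, fell, with 99.4, 92.2 and 85.6 against 77.2, 67.4 and 64.6 scaled CPM, a difference of -0.41 (SE 0.11, edgeR adjusted p = 0.0195). Its call was lost without replicate 2 of MA9+EV, replicate 2 of MA9+SETDB1 or replicate 3 of MA9+SETDB1 (adjusted p = 0.0617, 0.0817 and 0.0823). Zfp608, known to curb Rag gene expression in thymocytes, was at 54.6, 61.3 and 62.1 against 58.6, 107 and 94.0. Replicate 1 of MA9+SETDB1 lay among the MA9+EV libraries and the other MA9+SETDB1 libraries above them. Its difference of 0.54 (SE 0.22, edgeR adjusted p = 0.0733) did not pass the threshold with all libraries, and passed it without replicate 1 of MA9+SETDB1 (0.77, adjusted p = 0.00115) and with the replicate block (0.50, adjusted p = 0.0426). Zfp609, which joins the cohesin loader and the Integrator complex, Zfp281, a pluripotency regulator, and Zfp318, which controls IgD expression, had overlapping arms and differences of 0.18, -0.07 and -0.33.

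The remaining genes with the smallest p among the higher calls lay outside these role lists. Zfp120 (ENSMUSG00000068134.13, chromosome 2, 150114407 to 150136678) stood at 57.1, 54.0 and 55.1 scaled CPM in MA9+EV replicates 1 to 3 and 118, 131 and 132 in MA9+SETDB1 replicates 1 to 3. Every MA9+SETDB1 library had more than 2-fold the level of every MA9+EV library, with a log2 difference of 1.20 (SE 0.09, edgeR adjusted p = 9.34e-05). Zfp275, an X-linked gene, was at 24.4, 25.9 and 27.0 against 59.0, 55.0 and 49.9, MA9+EV first, a difference of 1.08 (SE 0.11, edgeR adjusted p = 0.00032). Zfp398 was at 38.4, 37.2 and 40.9 against 63.1, 96.0 and 87.6. Its replicate 1 was the lowest MA9+SETDB1 library and the arms did not overlap, with a difference of 1.08 (SE 0.17, edgeR adjusted p = 0.00171).

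Zfp637 rose from a mean of 13.7 ± 1.95 to 28.8 ± 5.61 scaled CPM (SD, n = 3), a log2 difference of 1.07 (SE 0.20, edgeR adjusted p = 0.00351). Zfp511 rose from 16.7 ± 2.00 to 26.3 ± 1.17, a difference of 0.66 (edgeR adjusted p = 0.00727), and Zfp7 from 15.8 ± 2.27 to 25.1 ± 2.07, a difference of 0.67 (adjusted p = 0.0107). In all 3 the MA9+SETDB1 libraries lay above the MA9+EV libraries. With library totals as the scaling the difference of Zfp7 was 0.45 and not called (adjusted p = 0.0664). The 9 other higher calls, in order of symbol, were Zfp169, Zfp444, Zfp46, Zfp507, Zfp622, Zfp64, Zfp704, Zfp790 and Zfp954. Of these Zfp704 had the largest difference, 0.94 (SE 0.25, edgeR adjusted p = 0.0186), with 28.1, 39.4 and 36.9 against 92.5, 53.6 and 53.5 scaled CPM. Its replicate 1 was the lowest MA9+EV library and the highest MA9+SETDB1 library. Apart from Zfp622, the others had log2 differences of 0.71 for Zfp46, 0.48 for Zfp954, 0.51 for Zfp169, 0.46 for Zfp444, 0.47 for Zfp790, 0.31 for Zfp64 and 0.33 for Zfp507.

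Among the lower calls, Zfp422 (ENSMUSG00000059878.12, chromosome 6, 116624016 to 116628999) had the smallest p. It stood at 77.1, 79.3 and 79.7 scaled CPM in MA9+EV replicates 1 to 3 and 32.3, 30.5 and 26.7 in MA9+SETDB1 replicates 1 to 3, so that the libraries within an arm were close and the arms far apart. The log2 difference was -1.40 (SE 0.11, edgeR adjusted p = 9.53e-05). Zfp219, a cofactor of SOX9 in cartilage, was at 28.4, 36.5 and 38.5 against 10.9, 11.1 and 10.6 scaled CPM, a difference of -1.66 (SE 0.16, edgeR adjusted p = 0.00022). It overlaps Arhgef40 and Tmem253 in RefSeq. Zfp146, a protein made almost only of zinc fingers, was at 80.3, 92.5 and 92.1 against 41.1, 45.1 and 42.3, a difference of -1.04 (SE 0.10, edgeR adjusted p = 0.000258).

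Zfp710 stood at 90.5, 58.0 and 60.0 scaled CPM in MA9+EV replicates 1 to 3 and 25.6, 25.5 and 22.1 in MA9+SETDB1 replicates 1 to 3. Replicate 1 of MA9+EV was above the other MA9+EV libraries, and all 3 were above the MA9+SETDB1 libraries. The log2 difference was -1.51 (SE 0.20, edgeR adjusted p = 0.000842). Zfp362, a relative of the Drosophila genes rotund and squeeze, fell from 27.0 ± 5.18 to 13.4 ± 1.85 (mean ± SD, n = 3), a difference of -1.004 (edgeR adjusted p = 0.00508), and Zfp131, a BTB domain protein, from 83.3 ± 2.70 to 61.9 ± 0.397, a difference of -0.43 (adjusted p = 0.00492). The 14 other lower calls, in order of symbol, were Zfp101, Zfp141, Zfp148, Zfp282, Zfp367, Zfp472, Zfp523, Zfp644, Zfp652, Zfp770, Zfp777, Zfp800, Zfp930 and Zfp942. Among them Zfp101 stood at 31.3, 29.2 and 30.3 against 21.7, 14.2 and 16.4 scaled CPM, Zfp282 at 32.3, 27.1 and 29.8 against 21.3, 19.9 and 19.1 and Zfp367, known as a regulator of cell-cycle genes, at 30.6, 39.8 and 42.9 against 25.3, 21.7 and 23.7. The arms of all 3 genes were separate, with log2 differences of -0.80, -0.56 and -0.68. Differences were -0.48 for Zfp472, -0.86 for Zfp652, -0.58 for Zfp800, -0.53 for Zfp523, -0.70 for Zfp777, -0.45 for Zfp930, -0.52 for Zfp141, -0.60 for Zfp942 and -0.45 for Zfp770.

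Of the 43 calls, 13 were kept in all 14 alternative settings, 1 of which, leaving out replicate 1 of both arms, was added after the data had been seen. These were Zfp106, Zfp120, Zfp217, Zfp275, Zfp398, Zfp637 and Zfp809 among the higher and Zfp146, Zfp219, Zfp422, Zfp568, Zfp703 and Zfp710 among the lower calls. With replicates 2 and 3 of each arm summed into 1 library, the same 13 calls were kept and the other 30 were lost. Among the 20 with the smallest p, the lost ones were Zfp335, Zfp511, Zfp7, Zfp451, Zfp131, Zfp362 and Zfp687 (edgeR adjusted p from 0.066 to 0.13). Leaving out 1 library at a time kept 25 to 42 of the 43 calls. The calls that at least 1 such omission ended were those of Zfp141, Zfp148, Zfp169, Zfp444, Zfp46, Zfp472, Zfp507, Zfp523, Zfp622, Zfp64, Zfp644, Zfp652, Zfp704, Zfp770, Zfp777, Zfp790, Zfp800, Zfp930, Zfp942 and Zfp954. Library totals as the scaling ended the calls of Zfp169, Zfp444, Zfp46, Zfp507, Zfp622, Zfp64, Zfp7, Zfp704, Zfp790 and Zfp954, all of them higher calls. At the other end, the 5 genes of both arms with a difference nearest 0 were Zfp956, Zfp408, Zfp598, Zfp865 and Zfp953, with log2 differences of 0.01, 0.01, -0.01, -0.01 and -0.01 and standard errors of 0.12 to 0.18. Zfp865, for instance, stood at 28.9, 25.3 and 29.3 against 28.7, 28.7 and 25.6 scaled CPM.

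Replicate 1 stood apart from replicates 2 and 3 in both arms. Replicate 1 was the highest MA9+SETDB1 library for 100 of the 147 Zfp genes, or 68.0%, beside 46.2% of the 7860 genes. Its median log2 ratio to the mean of the other MA9+SETDB1 libraries was 0.19 for the Zfp genes and 0.003 for the 7860. In MA9+EV replicate 1 was the highest for 78 of 147, or 53.1%, beside 47.7%, and the median log2 ratio was 0.06 beside 0.02. Between replicates 2 and 3 the median log2 ratio of the Zfp genes was -0.02 in MA9+EV and 0.01 in MA9+SETDB1. These shares were not tested against each other.

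**Figure D4:**
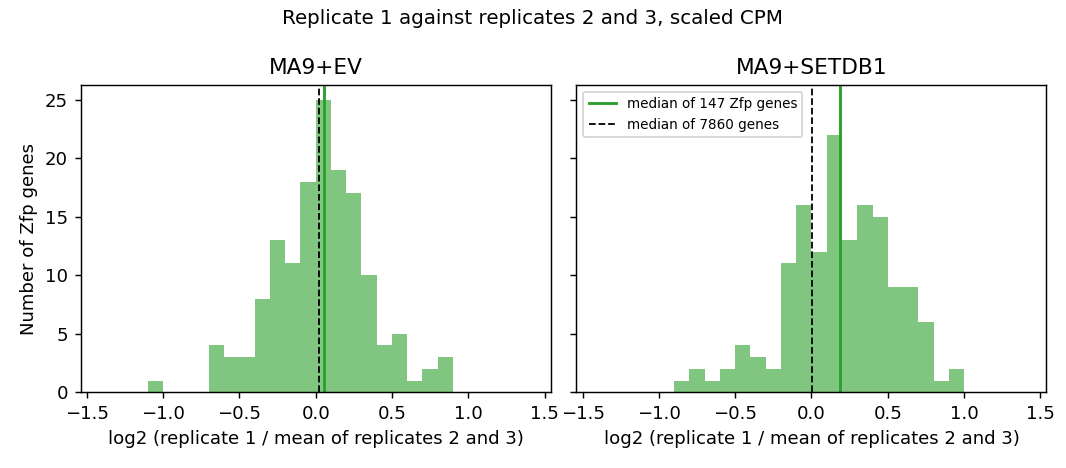
Number of the 147 Zfp genes of both arms (y axis) by log2 ratio of replicate 1 to the mean of replicates 2 and 3 (x axis), 1 panel per arm, with a solid line at their median and a dashed line at the median of all 7860 tested genes at the same minimum. The solid line lies at 0.19 for MA9+SETDB1 and at 0.06 for MA9+EV, and the dashed lines at 0.003 and 0.02.

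With replicate 1 of both arms left out, a comparison added after the data had been seen, 43 Zfp genes were called higher and 55 lower, a share of 66.7% beside 80.2% of the 7860. Leaving out replicate 1 of MA9+SETDB1 alone gave 59 calls (40.1% beside 58.1%). Leaving out any other single library gave 25 to 40 calls (17.0% to 27.2% beside 35.5% to 47.8%). In each of these settings the share of Zfp genes called was the lower one.

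The summed level of all 183 Zfp genes was 6647, 6416 and 6484 scaled CPM in MA9+EV replicates 1 to 3 and 7413, 6997 and 6908 in MA9+SETDB1 replicates 1 to 3. The arms did not overlap in this sum on TMM scaling. On unscaled CPM they overlapped and the order of the arm means was reversed, with 7139, 6935 and 7094 in MA9+EV and 7342, 6209 and 6184 in MA9+SETDB1. Without Zfp106 the sums were 6312, 6081 and 6153 in MA9+EV and 6410, 5827 and 5777 in MA9+SETDB1 on scaled CPM, and the arms overlapped.

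By position, 41 of the 183 genes lay on chromosome 7 and 23 on chromosome 17. With genes joined when their starts were less than 200 kb apart, 64 genes formed 16 clusters of 3 or more, 24 lay in pairs and 95 alone. Coordinates are those of RefSeq on GRCm38. On TMM scaling 15 clusters held genes with fitted differences on both sides of 0, and 11 held no called gene of both arms. Of the 51 genes of both arms inside clusters 4 were called higher and 5 lower, or 17.6%, and of the 96 outside 15 and 19, or 35.4%. Over the 7860 tested genes at the same minimum in both arms, 48.7% were called in either direction. The differences between these shares were not tested.

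The cluster on chromosome 4 (147611936 to 147849126) was the only cluster of the 16 with all differences above 0: Zfp979 is described above, and Zfp984 and Zfp933 were not called. The lowest of the 3 was at 0.02, less than the shift of -0.23 that library totals give the median of all genes. A cluster of 7 on chromosome 7 (29768552 to 30169775) held Zfp84, Zfp790, Zfp27, Zfp74, Zfp568, Zfp260 and Zfp146, with Zfp790 higher, Zfp568 and Zfp146 lower and differences from -1.07 to 0.47. The cluster of 7 on chromosome 6 (47835633 to 48086986) held Zfp398, called higher, Zfp282 and Zfp777, called lower, and Zfp212, Zfp783, Zfp956 and Zfp746, with differences from -0.70 to 1.08. Both of these clusters thus held calls in opposite directions, but that of Zfp790 was lost in several settings, among them upper-quartile factors, library totals and the summed replicates. The calls of Zfp282 and Zfp777 were lost with the summed replicates too. That of Zfp777 was also lost without replicate 2 of MA9+EV, replicate 2 of MA9+SETDB1 or replicate 3 of MA9+SETDB1.

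On chromosome 7 (127233061 to 127615785), Zfp629 lay in a row with Zfp553, Zfp768 and Zfp688. Zfp688 reached the minimum only in MA9+SETDB1 and Zfp768 and Zfp629 only in MA9+EV, and differences ranged from -4.58 to 0.94. Zfp787, Zfp444 and Zfp667 (6131489 to 6307883) ranged from -0.46 to 1.55, with Zfp444 called higher. The 3 further groups on that chromosome had no called gene of both arms. They were Zfp329, Zfp110, Zfp324 and Zfp446 (12803778 to 12985717, differences from -0.24 to 0.11), Zfp180, Zfp111 and Zfp61 (24081877 to 24303840, -1.32 to 0.14), and Zfp60, Zfp626 and Zfp850 (27731409 to 28014210, -0.27 to 0.13).

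Chromosome 17 held 3 clusters. Zfp54, Zfp51, Zfp53 and Zfp52 (21423227 to 21563362) ranged from -0.28 to 0.72 and Zfp994, Zfp944 and Zfp758 (22197265 to 22393909) from -0.08 to 0.10, both without a called gene of both arms. Zfp54, at 0.72, reached the minimum only in MA9+SETDB1. Zfp871, Zfp799, Zfp472 and Zfp952 (32765496 to 33005457) ranged from -1.09 to 0.02, with Zfp472 called lower. On chromosome 9, Zfp653, Zfp809 and Zfp810 (22055411 to 22307814) ranged from -0.81 to 0.89: Zfp809 rose, while Zfp810 reached the minimum only in MA9+EV. Zfp560, Zfp26, Zfp426 and Zfp266 (20345136 to 20521419) ranged from -0.31 to 0.34 with no called gene.

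The remaining clusters had no called gene of both arms either. On chromosome 13, Zfp595, Zfp953, Zfp87, Zfp748, Zfp738 and Zfp65 (67312985 to 67729178) ranged from -0.43 to 0.00. On chromosome 8, Zfp868, Zfp869 and Zfp866 (69610654 to 69774911) ranged from -0.34 to 0.17, and on chromosome 18, Zfp397, Zfp35 and Zfp24 (23952741 to 24020813) from -0.28 to 0.09. Neighbouring zinc finger genes can be near-identical copies. The deposited tables set aside 18.4% to 20.2% of their entries as reads without a unique position, so levels of near-identical copies are uncertain. Of all 183 genes, 53 overlap another RefSeq gene.

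**Figure D5:**
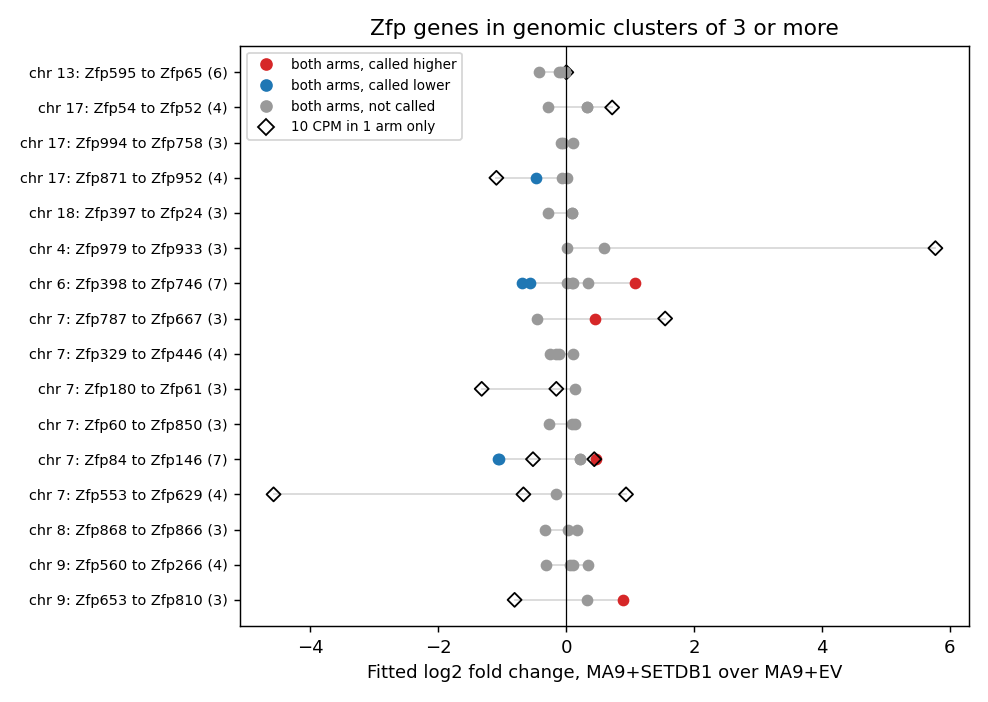
Fitted log2 difference, MA9+SETDB1 minus MA9+EV, of each Zfp gene in the 16 clusters of 3 or more, 1 row per cluster named by chromosome and its outer genes, with genes of both arms as circles coloured by the call and genes of 1 arm as open diamonds. Most points lie within 1 log2 unit of 0, and Zfp979 at 5.78 and Zfp629 at -4.58 lie far outside.

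A corepressor list of 19 genes was drawn up around KAP1 and SETDB1. It also holds genes of the HUSH complex and of DNA methylation, so not every change in it is one of the KAP1 pathway. Of the 19, 18 were tested: 4 were called higher, 5 lower and 9 not called. That is 50% beside 53.5% of all 12986 tested genes, with a median log2 difference of -0.28 beside -0.01. Setdb1 itself, Atf7ip, the partner that stabilises SETDB1, Chd3 and Dnmt3a rose, by log2 differences of 2.39, 0.50, 3.37 and 1.50. The call of Setdb1 was largely set by the design, since the vector carried SETDB1, and the counts and the share above include it. Dnmt3b, a DNA methyltransferase, fell from 13.5 ± 0.448 to 0.355 ± 0.13 scaled CPM (mean ± SD, n = 3 each), a difference of -5.23. Mphosph8, of the HUSH complex, Uhrf1, Morc3 and Smarcad1 fell by 1.14, 0.82, 0.55 and 0.45 on the log2 scale. Trim28, which encodes KAP1, stood at 389 ± 58.5 and 309 ± 7.97, a difference of -0.33 that did not pass the threshold (edgeR adjusted p = 0.0714). The number of lower calls was 8 with the replicate block and 10 with library totals as the scaling.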

How the data were processed

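Gene expression was measured by RNA-seq in 6 libraries, 3 per arm, and the 20 other samples of the series were not analysed here. Per the submitters' processing notes the tools included STAR 2.6.0c and HTSeq 0.11.0 with the GRCm38 genome. Libraries were strand-specific and polyA-selected, per the labels' protocols. The authors deposited whole-number read counts per gene, 1 table per library, with the strand setting of the counting not given in the sources used here. Entries that name no gene took 24.6% to 26.3% of each table and were left out of library sizes. Of the gene IDs, 52480 matched a list of gene names by version, 1599 without the version and 67 not at all. RefSeq positions were then joined by gene symbol.

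All genes were fitted together with edgeR 4.0.16 (R 4.3.3): filterByExpr by arm, TMM factors, the quasi-likelihood F-test and Benjamini-Hochberg adjustment over 12986 genes at 0.05. edgeR's common coefficient of biological variation came to 0.244. The code of the fit was run on simulated counts as a check. Those counts had less spread between libraries and fewer changed genes than these data, so they give no error rate for the calls here. Differences are MA9+SETDB1 minus MA9+EV. With 3 counts as the floor, precision is set by the spread between libraries for most genes, and the counting interval given covers counting error only.

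The genes and lists were chosen with earlier results of these data known. Named are: among genes of both arms, the 10 with the smallest p per direction and the 5 differences nearest 0; among genes of 1 arm, the 8 largest ratios per arm; the 3 genes on either side of the minimum; all members of the role lists; and all genes in clusters of 3 or more. A further part of the rule, the highest levels per exon length, was not applied, since exon lengths were not used here, and levels are not compared between genes. Protein sequences were not used here, so KRAB and SCAN classes were not derived. Single values of some marker genes are not reported here.

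Across arms, deviations from the arm mean correlated at 0.257, 0.196 and 0.169 for libraries that share replicate number 1, 2 and 3. The numbers were therefore also fitted as a block. Replicates 2 and 3 correlated as much across numbers (0.203 and 0.177). Deviations from a mean of 3 libraries sum to 0, so a replicate 1 apart in both arms gives such values for replicates 2 and 3. They do not show that libraries are paired by number. Alternatives were DESeq2 size factors, upper-quartile factors, library totals, no filter on low counts, DESeq2 1.42.0, the block, each library left out, replicates 2 and 3 summed, a minimum of 5 or 20 CPM or of 10 CPM on the mean over all 6 libraries, and the minimum on scaled CPM. Leaving out replicate 1 of both arms, and the summed level on unscaled CPM, were added after the data had been seen.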

Additional observations from a re-analysis of the deposited data

How the results depend on the processing

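Of the 43 calls of Zfp genes in both arms, none changed sign in any alternative setting. The 19 higher and 24 lower calls became 9 and 38 with library totals as the scaling, and 43 and 55 without replicate 1 of both arms, a setting added after the data had been seen. Summing replicates 2 and 3 within each arm left 7 and 6. A minimum of 20 CPM in either arm left 118 Zfp genes. A minimum of 20 CPM in both arms gave 11 higher and 14 lower calls, since fewer genes were counted. Without the filter on low counts 12 were called higher and 19 lower. Leaving out each library in turn gave 10 to 23 higher and 13 to 36 lower calls. With the replicate block 20 Zfp genes were higher and 30 lower: 41 of the 43 calls were kept, those of Zfp64 and Zfp770 were lost and 9 were gained. In that fit the corepressor list had 8 lower calls instead of 5. Library totals gave that list 10 lower calls. Over all tested genes, summing replicates 2 and 3 gave 2292 higher and 1928 lower calls, beside 3553 and 3397, and leaving out replicate 1 of both arms gave 5314 and 5285. The summed CPM of the 183 genes, MA9+SETDB1 mean minus MA9+EV mean, was 590 scaled and -478 unscaled, the latter added after the data had been seen. The cause of these shifts was not tested. Both arms are cultures without a stated link between replicates, and 3 libraries per arm limit what small differences can be called. Genes under 3 counts in an arm allow no ratio beyond their counting interval.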
